A study of Mus musculus with 4 samples.

Results

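The genes of oxidative phosphorylation were compared by respiratory complex between BMMs given dimethyl itaconate (DI) and BMMs given its vehicle. They were taken from the KEGG annotation in the deposited table, as every gene annotated with the pathway Oxidative phosphorylation. The subunits of complex II (Sdha, Sdhb, Sdhc and Sdhd) and the genes of the vacuolar proton pump (Tcirg1 and the genes named Atp6v or Atp6ap) were left out. Of 34745 genes in the table, 129 had the annotation, 28 were left out and 101 remained, of which 88 are nuclear and 13 are encoded by mitochondrial DNA, with names that begin with mt-. Complex I had 41 of them (34 nuclear), complex III had 9 (8 nuclear), complex IV had 27 (24 nuclear) and complex V had 17 (15 nuclear). The other 7 are no subunits of these complexes. Ndufa4 and Ndufa4l2 were counted with complex IV, where the Ndufa4 protein sits, in spite of their names.

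BMMs are bone marrow cells that M-CSF has turned into macrophages, here taken from wild-type male C57BL/6 mice aged 8 weeks. All cells were first kept for 12 h without FBS, and both groups then received RANKL (Receptor Activator of Nuclear factor Kappa-B Ligand, the cytokine that turns macrophages into osteoclasts) at 100 ng/mL for 24 h. DI, a membrane-permeable ester of itaconate, was added to one group (RANKL+DI) and DMSO alone to the other (RANKL+DMSO), with 2 libraries each. For DI the sample labels state 20 mM and the methods text states 20 μM. The methods describe in vitro experiments in general as repeated independently, but no source says of these libraries whether those of a group came from separate mice or cultures, so p-values measure the spread between these libraries, which may be technical. A group without RANKL was not analysed here.

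In the inner mitochondrial membrane, complexes I, III and IV pass electrons from NADH to oxygen by way of coenzyme Q and cytochrome c and pump protons, and complex V (ATP synthase) uses the proton gradient to make ATP. Each of these complexes is built from nuclear and mitochondrial gene products, with the mitochondrial ones at the membrane core. Macrophages shift between oxidative phosphorylation and glycolysis when they are activated, and osteoclasts are known for their many mitochondria.

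The libraries held 16085692 to 19403480 counts, and 3 counts corresponded to between 0.160 and 0.180 CPM (counts scaled to a fixed library total, here with TMM factors). Macrophage markers were plentiful, with Adgre1 between 1023 and 1174 CPM, while Cd3e, Ly6g and Hbb-bs, which define T cells, neutrophils and red cells, had 0 counts in all libraries. The summed markers of B cells reached at most 0.600 CPM and those of T and NK cells 0.699 CPM. Neutrophil markers summed to 9.23 to 11.1 CPM, mast cell and basophil markers to at most 0.0600 CPM, erythroid markers to at most 0.0583 CPM, and stromal and endothelial markers to 41.2 to 50.3 CPM. Macrophage and osteoclast markers moved with the treatment. Of 8 macrophage markers 5 were called higher and 2 lower with DI. Of 7 tested osteoclast markers 1 was called higher and 5 lower, beside 7.14% and 7.70% of all genes tested. The exact test of edgeR called 3 macrophage markers higher, with Cd68 and Adgre1 no longer among them, and left the other marker calls as they were. The summed macrophage markers were 28443 and 29258 CPM with DI and 23125 and 22261 CPM with DMSO. Lyz2 made up most of this sum (22772 and 23786 against 18289 and 17630.1 CPM). The median log2 fold change of the 8 was 0.18, and the 2 lower ones were Cd14 (-0.51) and Fcgr1 (-0.60). The summed osteoclast markers were 690.2 and 678 CPM with DI against 738 and 715 CPM with DMSO. Most of the osteoclast sum was Atp6v0d2, the marker that was higher (509 and 509 against 427 and 418 CPM), while the median log2 fold change of the 7 was -0.58. The part of this shift in the values given here was not tested, and in bulk RNA a lower share of cells of a type cannot be told apart from less RNA per cell.

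Of the 101 genes, 90 had enough counts to be tested (77 nuclear and all 13 mt- genes). With edgeR's quasi-likelihood test and Benjamini-Hochberg adjustment over all genes, 6 of the 90 had an adjusted p under 0.05, which is 6.67% of them, against 14.8% of the 12590 genes tested in the whole table. All 6 were nuclear, and none of the 13 mt- genes was called by edgeR's test or by the DESeq2 Wald test (3 had an unadjusted p under 0.05). Ndufa1, Ndufa2, Atp5d and Atp5e were higher with DI, and Ndufb10 and Ppa1 were lower. Among all genes tested, 7.14% of genes were called higher and 7.70% lower. An unadjusted p under 0.05 was found in 25 of the 90 genes, beside 30.0% of all genes tested (3775 of 12590). Scaled by library size only, in place of TMM factors, 2 nuclear genes were called higher and 13 lower, with the median log2 fold change of all genes in the table then at -0.10 in place of 0.0012.

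**Figure D1:**
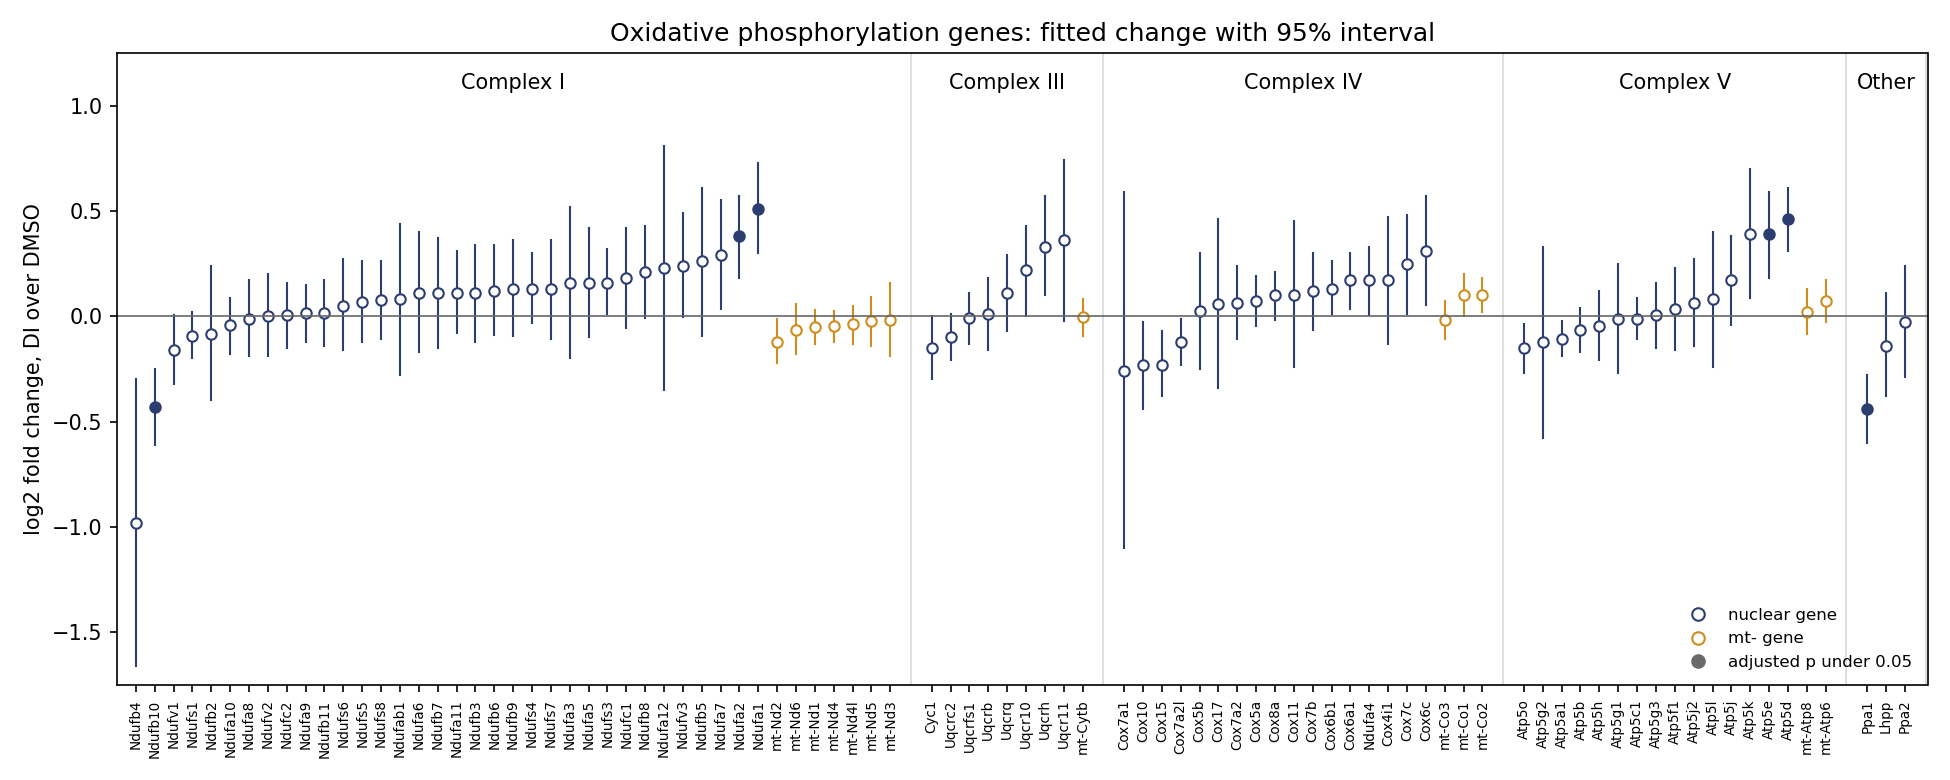
Fitted log2 fold change (DI over DMSO) on the vertical axis with its 95% interval for each of the 90 tested genes, ordered within each complex, with nuclear genes in blue and mt- genes in orange. Filled points mark the 6 genes with an adjusted p under 0.05, and the mt- genes lie close to 0, between -0.12 and 0.10.

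Most of these genes differed little between the groups. The median log2 fold change was 0.075 over the 77 nuclear genes and -0.020 over the 13 mt- genes, beside 0.0012 over all genes. Of the nuclear genes 53 had a value above 0 and 24 below 0, while 50.2% of all genes tested were above 0. Scaling by library size only turned this to 35 above and 42 below, with the median of all genes then at -0.102. Above the median of all genes lay 52 of the 77 with either scaling. The count above 0 was 46 without the second DI library and 45 without the second DMSO library. The 95% interval lay within 0.5 of 0 on the log2 scale for 60 of the 77 nuclear genes and for 13 of 13 mt- genes, and it left out a doubling and a halving for 75 and 13 of them. The DI and DMSO libraries did not overlap in 61.0% of the nuclear genes (30 higher, 17 lower) and in 53.8% of the mt- genes (3 higher, 4 lower), near the 58.6% of all genes (29.0% higher, 29.6% lower).

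Summed over genes, the nuclear part held 5568 and 5766 CPM with DI and 5687 and 5408 CPM with DMSO. The mt- genes held 28579 and 29309 CPM with DI and 27600.4 and 28916 CPM with DMSO. The groups overlapped in both sums. By complex, the nuclear genes of complex IV summed to 1275 and 1334 CPM with DI against 1254 and 1196 CPM with DMSO, and those of complexes I, III and V overlapped between groups. As a share of all counts, which uses no TMM factors, nuclear complex IV overlapped too (0.123% and 0.129% against 0.130% and 0.124%). So did complex IV mt- (1.57% and 1.60% against 1.55% and 1.65%). Complex I mt- stood apart on that scale as well, at the lower side in both DI libraries (0.804% and 0.837% against 0.902% and 0.926%). When scaled by library size only, the median log2 fold change of all genes was -0.10, so this lower share is no separate support. The mt- sum was 5.13 and 5.08 times the nuclear sum with DI and 4.85 and 5.35 times with DMSO, so the balance between the genomes differed by less than the spread between the DMSO libraries.

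**Figure D2:**
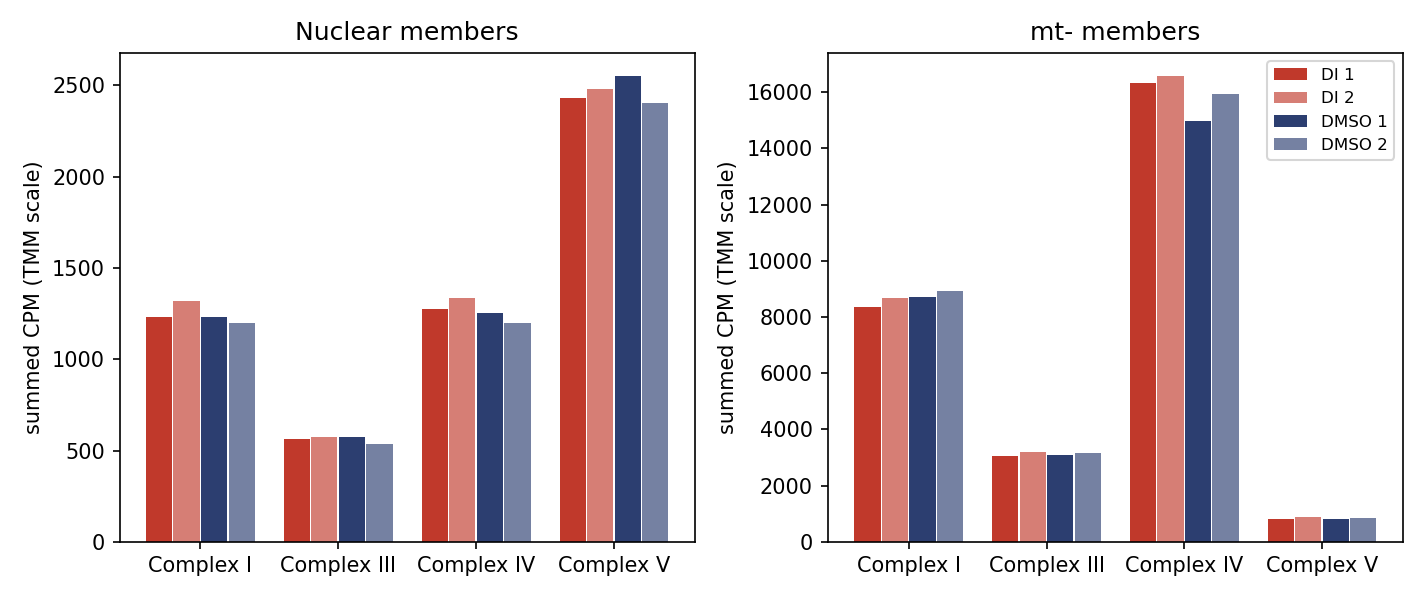
Summed CPM of the nuclear genes (left) and of the mt- genes (right) of complexes I, III, IV and V, with 1 bar for each library and a separate vertical scale in each panel. The bars of the DI and DMSO libraries stand apart on this scale for nuclear complex IV, for complex I mt- (8357 and 8663 against 8706 and 8939 CPM) and for complex IV mt- (16334 and 16568 against 14975 and 15955 CPM), and overlap in the other sums.

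Complex I oxidises NADH and is the largest of the complexes, with catalytic core subunits that carry the flavin and the iron-sulfur clusters and many accessory subunits around them. Of its 34 nuclear genes 2 rose, 1 fell and 31 did not pass the test, and 6 had an unadjusted p under 0.05. Ndufa1, an X-linked accessory subunit of the membrane arm (chromosome X, 37187588 to 37191163, GRCm38), was at 24.8 and 26.0 CPM with DI and at 17.3 and 18.3 CPM with DMSO. Both DI libraries lay above both DMSO libraries, with a log2 fold change of 0.51 (SE 0.086) and an adjusted p of 0.0144. Ndufa2, an accessory subunit of the matrix arm (chromosome 18, 36742332 to 36744557), was at 39.9 and 44.7 CPM with DI and at 33.1 and 32.1 CPM with DMSO. It rose by 0.38 on the log2 scale (SE 0.080), with an adjusted p of 0.0304. Ndufb10, an accessory subunit of the membrane arm (chromosome 17, 24722060 to 24724478), went the other way, with 32.5 and 32.7 CPM with DI against 45.8 and 42.1 CPM with DMSO. It fell by 0.43 on the log2 scale (SE 0.072), with an adjusted p of 0.0142.

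Some of these calls rested on single libraries. Ndufa1 had an adjusted p of 0.0518 without the second DI library and 0.0582 without the first DMSO library, and Ndufb10 had 0.0673 without the first DMSO library. Ndufa2 was no longer called when the second DI, the first DMSO or the second DMSO library was left out (adjusted p = 0.127, 0.0928 and 0.109), nor with scaling by library size only (0.0669). With the first DI library left out 8 nuclear genes of all complexes were called higher in place of 4, and the added ones were Ndufb5, Ndufa12, Uqcrh and Cox6c. With the second DI library left out Atp5d alone was called higher. Ndufa2 also shares 11.5% of its exon bases with Tmco6 on the opposite strand, which averaged 89.8 counts, and no source says that counting used the strand.

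**Figure D3:**
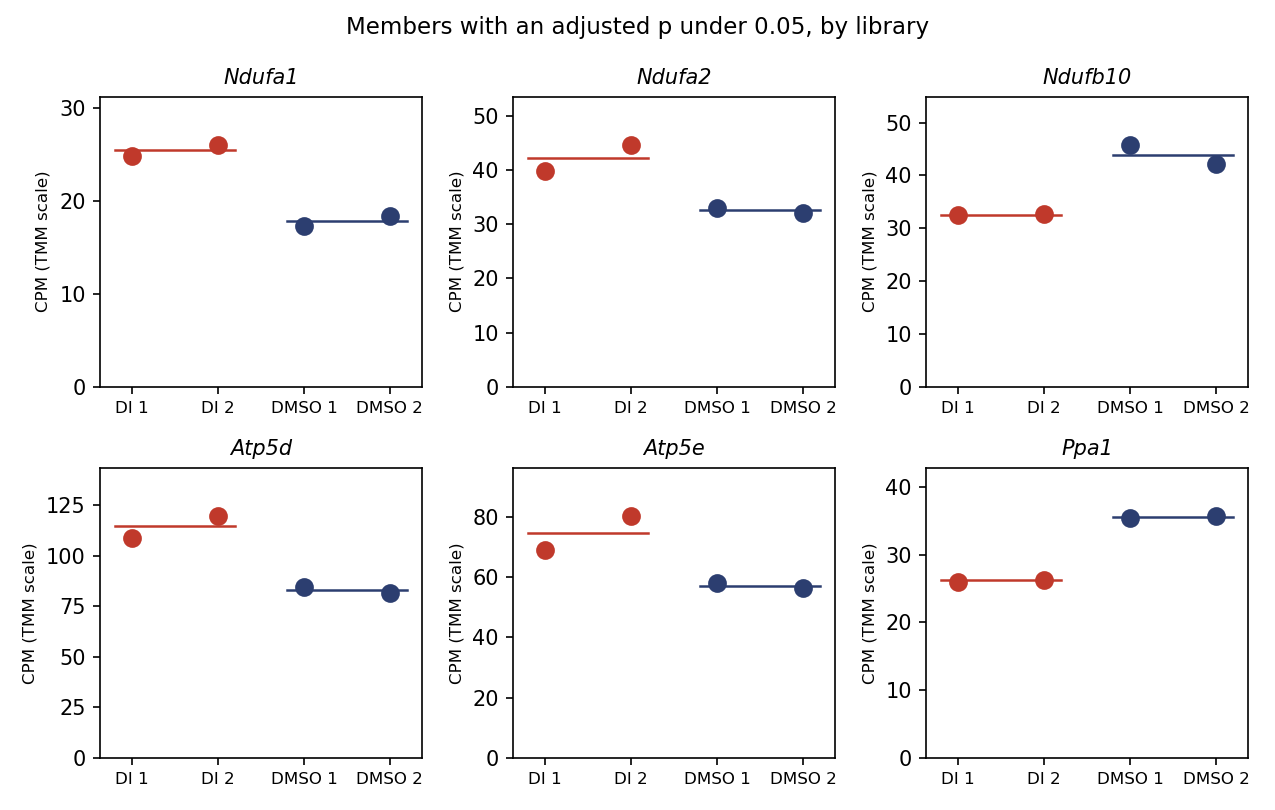
CPM on the TMM scale in each of the 4 libraries for the 6 genes with an adjusted p under 0.05, each panel with its own vertical axis from 0 and lines at the group means. In all 6 panels the DI points (red) and the DMSO points (blue) do not overlap, with Ndufb10 and Ppa1 lower with DI and the other 4 higher.

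None of the 6 annotated nuclear core subunits passed the test. Ndufs1, the large iron-sulfur subunit that receives electrons early in the chain, was at 106 and 104 CPM with DI and at 112 and 112 CPM with DMSO (log2 fold change -0.092, adjusted p = 0.239). Ndufv1, which binds NADH and the flavin, was at 29.9 and 29.2 CPM against 32.7 and 33.3 CPM (-0.16, adjusted p = 0.180). Ndufs3, a core subunit of the connecting part, was at 37.7 and 37.8 CPM against 33.7 and 33.7 CPM (0.16, adjusted p = 0.144). The libraries of the groups were apart in all 3 of these, at differences too small to pass. Ndufs7, Ndufs8 and Ndufv2, which hold further iron-sulfur clusters, had log2 fold changes of 0.13, 0.075 and 0.00035. With scaling by library size only, Ndufs1 and Ndufv1 were called lower (adjusted p = 0.0326 and 0.0441).

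The accessory subunits lay mostly on the higher side. Of 28, 23 had a value above 0, with a median of 0.11, against 4 of 6 and a median of 0.037 for the core subunits. With scaling by library size only, 17 of 28 accessory genes were above 0. Above the median of all genes lay 23 of 28 with either scaling. Without the second DI library the accessory count above 0 was 18 of 28, with a median of 0.02 beside a core median of -0.04. Without the first DI library the medians were 0.20 and 0.08. Ndufb4, an accessory subunit of the membrane arm with the lowest level per length among the nuclear genes of complex I (1.14 FPKM), had the widest difference of all 90 genes, with 19 and 20 counts with DI and 44 and 32 counts with DMSO. Its log2 fold change was -0.98 (95% interval -1.66 to -0.30) and its adjusted p 0.0698, and it was called lower by edgeR's exact test (0.0323), with a minimum of 10 counts (0.0465) and with scaling by library size only (0.0443). At the other end of the scale among the nuclear genes stood Ndufb9, also of the membrane arm, at 69.4 FPKM with a log2 fold change of 0.13 (adjusted p = 0.399). Ndufa13, an accessory subunit that lacks the annotation, was at 41.0 and 39.9 CPM with DI and at 34.9 and 31.0 CPM with DMSO (0.29, adjusted p = 0.0623).

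The 7 mt- genes of complex I, which make up its proton-pumping membrane core, all had values below 0, from -0.12 to -0.018 with a median of -0.047. None was called by edgeR's quasi-likelihood test or by the DESeq2 Wald test, and 1 had an unadjusted p under 0.05. That gene was mt-Nd2, at 1218 and 1269 CPM with DI and 1309 and 1387 CPM with DMSO (-0.12, 95% interval -0.22 to -0.013, adjusted p = 0.129). The groups were also apart for mt-Nd1 (2214 and 2277 against 2359 and 2294 CPM), by -0.051. For mt-Nd4 they were apart at 1806 and 1831 against 1867 and 1891 CPM, by -0.047. For mt-Nd4l they were apart at 322 and 318 against 327 and 330.4 CPM, by -0.038. In mt-Nd3, mt-Nd5 and mt-Nd6 the libraries overlapped, with values of -0.018, -0.022 and -0.063. The count of genes below 0 was 5 of 7 without the first DI library and also without the second DMSO library. When scaled by library size only, mt-Nd1, mt-Nd2, mt-Nd4 and mt-Nd4l were called lower (adjusted p = 0.0259, 0.0186, 0.0203 and 0.0423).

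Complex III carries electrons from coenzyme Q to cytochrome c, through cytochrome b, the Rieske iron-sulfur protein and cytochrome c1. None of its 8 nuclear genes passed edgeR's test, and 2 had an unadjusted p under 0.05. Uqcrh, the hinge protein that helps cytochrome c1 meet cytochrome c, came nearest, at 69.6 and 78.4 CPM with DI and 63.0 and 54.5 CPM with DMSO. Its log2 fold change was 0.33 (95% interval 0.10 to 0.57, adjusted p = 0.0742), and it was called by the DESeq2 Wald test (0.0490), with no filter on low counts (0.0309) and without the first DI library (0.0471). Uqcr11, a small accessory subunit, was at 20.0 and 25.8 CPM against 19.4 and 16.3 CPM (0.36, adjusted p = 0.186).

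In complex III the accessory and the catalytic subunits had values on different sides of 0, though Uqcrb and Uqcrfs1 overlapped between groups. The 5 accessory genes Uqcrb, Uqcrq, Uqcr10, Uqcrh and Uqcr11 had values from 0.011 to 0.36 with a median of 0.22. In 4 of the 5, all higher with DI, the groups did not overlap, beside 58.6% of all genes (29.0% higher). The median was 0.12 without the second DMSO library, with 4 of 5 above 0, and 0.32 without the first. Cyc1 (cytochrome c1), Uqcrfs1 (the Rieske protein) and the core protein Uqcrc2 had values of -0.15, -0.010 and -0.10, and none was called. Cyc1 was at 71.9 and 71.4 CPM with DI and 82.3 and 76.4 CPM with DMSO, and Uqcrc2 at 143 and 139 CPM against 155 and 148 CPM. Uqcrb, with the highest level of the complex per length among nuclear genes (68.6 FPKM), was at 73.1 and 78.5 CPM against 78.5 and 71.9 CPM, which overlap. With scaling by library size only 4 of the 5 accessory genes stayed above 0, and Cyc1 and Uqcrc2 were called lower (adjusted p = 0.0385 and 0.0270). The other core protein, Uqcrc1, lacks the annotation and had a log2 fold change of -0.011 (adjusted p = 0.896). The mt- gene of the complex, mt-Cytb (cytochrome b), was at 3056 and 3202 CPM with DI and 3097 and 3179 CPM with DMSO, with a log2 fold change of -0.0043 (95% interval -0.092 to 0.084).

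Complex IV (cytochrome c oxidase) passes electrons to oxygen at copper and heme centres held by its mt- subunits, with nuclear subunits around them, several of which exist as isoforms that differ between tissues. None of its 17 tested nuclear genes passed edgeR's test or the DESeq2 Wald test, and 8 had an unadjusted p under 0.05. The 11 structural subunits all had values above 0, from 0.026 to 0.31 with a median of 0.13. In 7 of them (63.6%), all higher with DI, the groups did not overlap, beside 58.6% of all genes (29.0% higher). With scaling by library size only 7 of the 11 were above 0, and with either scaling all 11 were above the median of all genes. The count above 0 was 10 without the second DI library and 9 without the second DMSO library. Cox6c had the highest value, at 71.7 and 88.8 CPM with DI and 63.5 and 65.8 CPM with DMSO (0.31, 95% interval 0.052 to 0.57, adjusted p = 0.110). Cox6a1 had the smallest adjusted p of the structural subunits, at 119.8 and 129 CPM against 110.1 and 112 CPM (0.17, adjusted p = 0.0973).

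Of the subunits that touch the catalytic core, Cox4i1 was at 173 and 163 CPM with DI and at 169 and 129 CPM with DMSO (0.17, adjusted p = 0.404). The groups overlapped through the first DMSO library, and without it the value was 0.38. Without the second DMSO library, the DI values lay on both sides of the 169 CPM that was left. Cox5a was at 127 and 129.5 CPM against 126 and 119 CPM (0.073, adjusted p = 0.371), and Cox5b was at 46.3 and 55.0 CPM against 53.3 and 46.2 CPM (0.026, adjusted p = 0.908). Of the 4 annotated assembly factors, 2 lay below 0. Cox15, which makes heme a, was at 46.1 and 49.0 CPM with DI and 55.8 and 55.4 CPM with DMSO (-0.23, adjusted p = 0.0705), and Cox10, which acts just before it, was at 21.3 and 22.1 CPM against 24.6 and 26.4 CPM (-0.23, adjusted p = 0.129). Both were called lower with scaling by library size only (adjusted p = 0.0201 and 0.0428). The copper factors Cox11 and Cox17 had values of 0.10 and 0.059, with overlapping groups. Cox11, at 113 to 141 counts, shares 48.35% of its exon bases with Tom1l1 on the opposite strand, which averaged 197 counts. Cox15 shares 9.04% with Entpd7 (766 counts) and Cox4i1 9.94% with Emc8 (709 counts), also on the opposite strand. No source says that counting used the strand.

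The isoforms found in most tissues were the ones measured in these BMMs, and the muscle, lung and testis isoforms were at 0 or far lower. Per length, Cox8a was the highest nuclear gene of the complex at 297 FPKM, while Cox8b and Cox8c had 0 counts in every library, which allows up to 3 counts or 0.180 CPM. Cox6a1 was at 98.6 FPKM and Cox6a2 at 0.334 FPKM, Cox6b1 at 202 FPKM and Cox6b2 at 0.0632 FPKM, and Cox4i1 at 59.4 FPKM and Cox4i2 at 0.0803 FPKM, as means over the 4 libraries. Cox7a2 was at 80.7 FPKM and its relative Cox7a2l, which takes part in supercomplexes of complexes III and IV, at 93.3 FPKM, against 2.36 FPKM for the muscle isoform Cox7a1. Cox7b2 had 0 counts, and Ndufa4 was at 29.5 FPKM against 0.0324 FPKM for Ndufa4l2. Cox7a2l was at 102 and 102 CPM with DI and 111 and 112 CPM with DMSO (-0.12, adjusted p = 0.136), and was called lower with scaling by library size only (adjusted p = 0.021). The 7 untested isoforms stayed at or below 0.360 CPM in all 4 libraries, so none of them appeared in either group above that level. FPKM values divide by gene model lengths that in several genes span most of the locus, so levels per length are approximate between genes.

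Among the mt- genes, mt-Co1 (the subunit with the oxygen-binding centre) was the most abundant per length, at 7791 FPKM, and took 43.4% and 42.8% of the counts of the mt- genes with DI and 40.5% and 41.7% with DMSO. It was at 12409 and 12556 CPM with DI and at 11192 and 12057 CPM with DMSO (0.10, 95% interval 0.0031 to 0.20, adjusted p = 0.156). mt-Co2, which takes up electrons from cytochrome c, was at 2234 and 2320.5 CPM against 2119 and 2133 CPM (0.10, adjusted p = 0.105). Both sets of libraries were apart, and both genes were called with no filter on low counts (adjusted p = 0.0254 and 0.0321). Without the second DMSO library, which leaves the lower DMSO value of 11192 CPM, the log2 fold change of mt-Co1 was 0.16. Without the first, the 12057 CPM left lay nearer the DI values. With scaling by library size only neither gene differed between groups to 2 decimals of the log2 fold change (adjusted p = 0.993 and 0.941). mt-Co3 was at 1691 and 1691 CPM against 1664 and 1765 CPM, which overlap (-0.020).

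Complex V consists of a catalytic F1 head with a central stalk, a peripheral stalk, and a membrane part with the ring of c subunits. Of its 15 nuclear genes 2 rose, 0 fell (5 had an unadjusted p under 0.05) and the median was 0.0065. Both genes that rose belong to the central stalk. Atp5d, its delta subunit (chromosome 10, 80138632 to 80145818), was at 109 and 119.7 CPM with DI and 84.7 and 81.7 CPM with DMSO, a rise of 0.46 on the log2 scale (SE 0.062, adjusted p = 0.00698). Atp5e, the epsilon subunit (chromosome 2, 174461072 to 174464105), was at 69.2 and 80.3 CPM against 58.1 and 56.3 CPM, a rise of 0.39 (SE 0.085, adjusted p = 0.0336). Atp5d was called under all 15 alternatives tried, with an adjusted p of at most 0.0346. Atp5e was not called without the second DI library (0.0818), without the first DMSO library (0.0856), without the second DMSO library (0.118) or with scaling by library size only (0.0709).

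The other subunits of the F1 part did not rise with them. The gamma subunit Atp5c1, the third part of the same stalk, was at 201 and 205 CPM with DI and 207 and 202 CPM with DMSO, which overlap (-0.011, 95% interval -0.11 to 0.089). Atp5a1 and Atp5b, the alpha and beta subunits that form the catalytic ring, had values of -0.11 (526 and 518 against 569 and 556 CPM, adjusted p = 0.0998) and -0.065 (829.6 and 835 against 901 and 839.6 CPM, adjusted p = 0.375). The intervals of Atp5d (0.31 to 0.61) and of Atp5b (-0.17 to 0.041) did not overlap. With scaling by library size only Atp5a1 and Atp5b were called lower (adjusted p = 0.0107 and 0.0441). Atp5d shares 3.53% of its exon bases with Cbarp on the opposite strand, which averaged 28.8 counts, and no exon overlap was found for Atp5e, Ndufa1, Ndufb10 or Ppa1.

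In the rest of complex V no gene was called by edgeR's test. Atp5k, the small e subunit of the membrane part, was at 18.7 and 22.5 CPM with DI and 16.5 and 14.9 CPM with DMSO (0.39, adjusted p = 0.0938). Atp5o, which joins the peripheral stalk to the head, was at 94.4 and 94.3 CPM against 103 and 106 CPM (-0.15, adjusted p = 0.0913), and it was called lower with scaling by library size only (-0.26, adjusted p = 0.0168). The c subunit of the ring is encoded by Atp5g1, Atp5g2 and Atp5g3, which differ in their import sequences and were at 1.79, 1.56 and 39.1 FPKM. Their log2 fold changes were -0.013, -0.12 and 0.0065, with adjusted p of 0.954, 0.708 and 0.963. The mt- genes mt-Atp6, which forms the proton channel, and mt-Atp8 had values of 0.071 (284 and 290.4 against 268 and 278 CPM, adjusted p = 0.303) and 0.021 (548 and 585 against 553 and 564 CPM, adjusted p = 0.795).

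The 7 annotated genes outside the complexes include 3 that hydrolyse pyrophosphate. Ppa1, the cytosolic inorganic pyrophosphatase (chromosome 10, 61648552 to 61674168), was at 26.0 and 26.3 CPM with DI and 35.4 and 35.7 CPM with DMSO. It fell by 0.44 on the log2 scale (SE 0.067, adjusted p = 0.0101) and was called under all 15 alternatives, with an adjusted p of at most 0.0482. Its mitochondrial relative Ppa2 was at 20.3 and 17.4 CPM against 18.9 and 19.4 CPM (-0.025, adjusted p = 0.910), and Lhpp, a phosphatase, had a log2 fold change of -0.14 (adjusted p = 0.422). Atp4a, Atp4b and Atp12a, the proton and potassium pumps of stomach and colon, had 0 counts in all libraries, and Yjefn3 did not exceed 0.300 CPM.

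The promoters of the genes that rose or fell were read from RefSeq (GRCm38.p6), since they are where nuclear factors known for respiratory genes could bind. Of the 88 nuclear genes 69 had an entry, Ndufa2 not among them. Both strands of the 250 bases before each listed start were searched for GCGCA followed by any base and GCGC (NRF1), CCGGAAG (ETS factors such as GABP) and AAGATGGCG (YY1). NRF1's letters stood in 17.4% of the 69 and in 4.2% of 27025 genes, the ETS letters in 17.4% against 7.8%, YY1's in 1.4% against 0.7%, and any of the 3 in 31.9% against 11.8%. The sequences below are the 250 bases before the start of the called genes in 5′ to 3′ direction of the gene, with matches in capitals.
Ndufa1 (chrX:37191239-37191488, minus strand): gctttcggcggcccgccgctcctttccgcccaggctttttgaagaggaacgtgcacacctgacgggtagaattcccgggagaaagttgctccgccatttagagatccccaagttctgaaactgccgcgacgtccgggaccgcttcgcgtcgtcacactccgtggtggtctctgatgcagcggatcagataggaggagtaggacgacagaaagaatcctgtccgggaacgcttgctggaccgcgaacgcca
Atp5d (chr10:80142025-80142274, plus strand): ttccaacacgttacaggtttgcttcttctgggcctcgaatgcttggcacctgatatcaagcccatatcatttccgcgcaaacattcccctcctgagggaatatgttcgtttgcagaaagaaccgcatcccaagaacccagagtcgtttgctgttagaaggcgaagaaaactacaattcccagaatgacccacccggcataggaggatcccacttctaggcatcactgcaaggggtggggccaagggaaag
Atp5e (chr2:174464102-174464351, minus strand): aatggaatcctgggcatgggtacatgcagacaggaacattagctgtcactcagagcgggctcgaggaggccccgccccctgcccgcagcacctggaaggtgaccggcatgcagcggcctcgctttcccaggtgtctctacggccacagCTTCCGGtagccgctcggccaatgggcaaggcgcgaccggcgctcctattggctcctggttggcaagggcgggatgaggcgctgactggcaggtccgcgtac
Ndufb10 (chr17:24724424-24724673, minus strand): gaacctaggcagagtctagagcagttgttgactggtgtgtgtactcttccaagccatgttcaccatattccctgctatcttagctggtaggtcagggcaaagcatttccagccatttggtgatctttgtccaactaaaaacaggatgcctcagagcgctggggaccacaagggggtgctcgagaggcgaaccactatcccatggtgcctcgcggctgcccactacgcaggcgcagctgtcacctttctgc
Ppa1 (chr10:61648371-61648620, plus strand): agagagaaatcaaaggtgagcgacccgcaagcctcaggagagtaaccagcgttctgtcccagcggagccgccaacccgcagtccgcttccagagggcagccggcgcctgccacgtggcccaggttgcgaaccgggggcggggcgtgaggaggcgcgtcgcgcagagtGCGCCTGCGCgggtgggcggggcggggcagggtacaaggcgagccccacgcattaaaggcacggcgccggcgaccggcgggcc
Of these 5, Atp5e, which rose, held an ETS match on its reverse strand, and Ppa1, which fell, held an NRF1 match on its reverse strand. In Ndufa1, Atp5d and Ndufb10 these letters were not in the window, nor in that of the second RefSeq start of Atp5d. The deposited model of Atp5d begins upstream of both RefSeq starts.

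The mt- counts share reads with copies of mitochondrial DNA in the nuclear genome. Matched at 95% identity or more over 20% or more of the transcript, 10 of the 13 mt- genes had such copies, and mt-Nd1, mt-Cytb and mt-Nd6 had none. A block on chromosome 1 (24611535 to 24616197) holds 7 copies with mean counts over 1000. The copy of mt-Atp6, Gm10925, was counted 33379 and 36943 times in the DI libraries and 34084 and 32699 times in the DMSO libraries. mt-Atp6 itself had far fewer, with 4874 and 5445 against 5001 and 4638. Its copy covers 99.6% of the transcript at 100.0% identity, so the locus the reads came from cannot be told apart, and the low level of mt-Atp6 per length (411 FPKM, beside 2757 FPKM for mt-Atp8, with which it overlaps by 43 bases) carries this uncertainty. Copies with over 1000 counts also exist for mt-Co1, mt-Co2, mt-Co3, mt-Nd3, mt-Nd4 and mt-Nd4l. In all, copies took 22.8% and 22.7% of the joint counts with DI and 22.5% and 22.5% with DMSO.

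**Figure D4:**
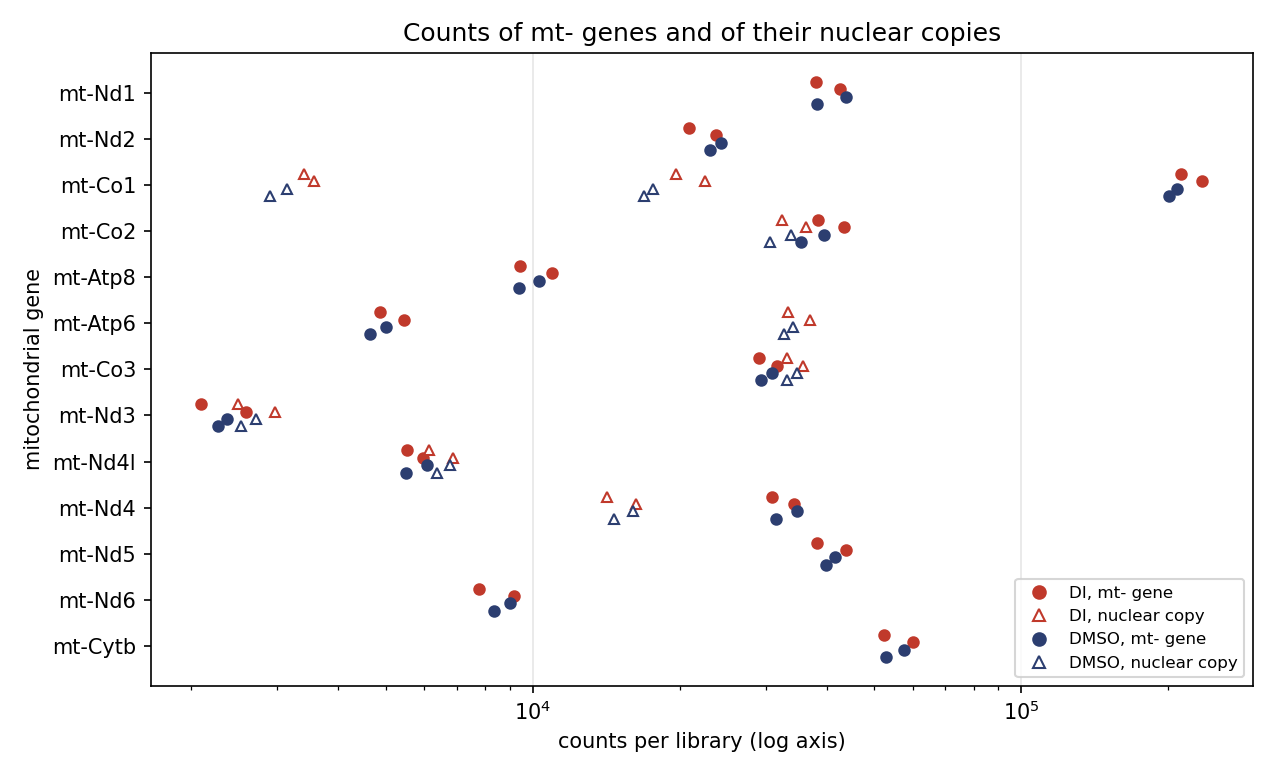
Counts per library on a log axis for the 13 mt- genes in their order on the mitochondrial genome (filled points) and for nuclear copies with over 1000 counts on average (open triangles), with DI in red and DMSO in blue. The copy of mt-Atp6 had 32699 to 36943 counts, above the 4638 to 5445 counts of mt-Atp6, while the copies of mt-Co1 lie well below it.

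Copies of mt-Co1 were themselves called higher with DI. Gm29216, which matches 31.3% of mt-Co1, was at 1145 and 1206 CPM with DI and 946 and 1015 CPM with DMSO (0.26, adjusted p = 0.0185), and Gm13340 on chromosome 2 was at 198 and 190.1 CPM against 169 and 174 CPM (0.18, adjusted p = 0.0485). With copies summed into their genes, a choice made after the data were seen, mt-Co1 had a log2 fold change of 0.12 (adjusted p = 0.114), mt-Co2 0.085 (adjusted p = 0.128) and mt-Nd2 -0.11 (adjusted p = 0.134). None of the 13 was called then by edgeR's test, the mt- median was -0.011, and the 6 nuclear calls were the same genes. Of the nuclear genes 17 have such a copy, none of them among the 6, and only those of Atp5h, Cox5b, Ndufs5, Cox7c, Uqcr10 and Atp5k had counts in the table. The overlapping pairs mt-Nd4l with mt-Nd4 (7 bases) and mt-Nd5 with mt-Nd6 (14 bases, on opposite strands) share few bases.

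Short nuclear genes lay above 0 more often than long ones. Among genes with models of 500 to 1000 bases, 13 of 14 of these nuclear genes (92.9%) had a value above 0, beside 57.6% of all genes of that length. Over 4000 bases it was 8 of 17 (47.1%), beside 48.6%. Across the 77 genes, which share libraries and are not replicates, Spearman's rho of length with the log2 fold change was -0.208, beside -0.0608 over all genes. It was -0.0621 for the difference between the DI libraries and 0.178 for that between the DMSO libraries.

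The genes that build and serve the complexes were read from lists of assembly factors, carriers and regulators. In these lists 4 genes passed edgeR's test, none of which the DESeq2 Wald test called. Called were 7.14% of the complex I assembly factors, 16.7% of the complex III factors and 16.7% of the genes for coenzyme Q and cytochrome c. In the other lists the share was 0%, beside 14.8% of all genes tested. Of 14 complex I assembly factors 1 fell, Tmem186 of the membrane arm assembly complex (13.2 and 14.2 CPM with DI, 17.8 and 18.7 CPM with DMSO, log2 fold change -0.41, adjusted p = 0.0444), with a median of -0.062. Of 6 complex III factors 1 rose, Uqcc3 (16.5 and 18.2 against 12.8 and 13.1 CPM, 0.42, adjusted p = 0.0479), with a median of 0.00074. Of 19 tested complex IV factors none was called by edgeR's test (median 0.073, 2 with an unadjusted p under 0.05), and of 4 complex V factors, with the inhibitor Atpif1, none (median -0.049, 0 with an unadjusted p under 0.05).

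Of 12 genes for coenzyme Q and cytochrome c, Coq10a, which binds coenzyme Q, rose (21.4 and 20.2 against 15.0 and 16.3 CPM, 0.41, adjusted p = 0.0417), and Pdss1, which makes its side chain, fell (6.93 and 7.63 against 9.88 and 11.3 CPM, log2 fold change -0.54, adjusted p = 0.0491). Cytochrome c itself, Cycs, was at 7.17 and 9.55 CPM against 8.16 and 9.37 CPM, which overlap. Of 17 tested genes for the upkeep and expression of mitochondrial DNA none was called (median -0.044, 3 with an unadjusted p under 0.05). Tfam, which packs and transcribes that DNA, was at 24.9 and 28.6 CPM with DI and 30.8 and 33.4 CPM with DMSO (-0.26, adjusted p = 0.134).

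None of the 4 tested transporters and uncoupling proteins was called (median 0.019, 1 with an unadjusted p under 0.05). Slc25a5, the ADP and ATP carrier with the highest counts among them after Ucp2, was at 369 and 363 CPM against 425 and 398 CPM (-0.17, adjusted p = 0.059). Of 8 tested regulators of mitochondrial biogenesis none was called (2 with an unadjusted p under 0.05), 7 lay below 0 and the median was -0.17. Among them Ppargc1b, a coactivator of respiratory genes needed for osteoclast mitochondria, was at 4.49 and 4.91 CPM against 6.39 and 6.18 CPM (-0.42, adjusted p = 0.116), and Pprc1 was at 54.3 and 28.3 CPM against 59.4 and 56.8 CPM (-0.50, adjusted p = 0.290), where the second DI library lay far below the first. Nrf1 and Gabpa had values of -0.13 and -0.19 (adjusted p = 0.409 and 0.168).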

How the data were processed

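From paired-end mRNA libraries the authors deposited an unnormalized read count for every gene and library. They also deposited FPKM values computed from these counts. The submitters' processing notes name GRCm38 (mm10), and the aligner and counting program are not given in the sources used here. Libraries were grouped by their labels. Counts were fitted in R 4.3.3 with edgeR 4.0.16 (TMM factors, default filter on low counts, quasi-likelihood test with the group as its only term, Benjamini-Hochberg adjustment over 12590 genes, called at an adjusted p under 0.05). Intervals are 95%, from the log2 fold change and its F statistic. The fit was tested on simulated data with 200 genes set to a doubling or a halving. The annotated genes called here changed by less, and changes of their size were not simulated. The common biological coefficient of variation was 0.0905, from 2 libraries a group, and depth floors cover counting error only.

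The genes, lists and tests were chosen with earlier results of these data known. Named are all mt- genes, core subunits and tissue isoforms of a written list, called members with the 3 highest and 3 lowest changes of each complex, the highest and lowest FPKM of each complex, and called list genes. Some results under this rule are not reported here. Other members, subunits without the annotation and list genes that were not called were named after their values were seen. Copies were found with BLAST+ 2.17.0 in GENCODE M21 transcripts. Coa1, Ndufaf8, Atp5if1, Fmc1, Twnk, Coq8a and Coq8b were not matched by symbol.

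Alternatives were DESeq2 1.42.0 size factors and Wald test, upper quartile factors, library size only, mt- genes left out of the library sizes, no filter, at least 10 counts in every library, limma 3.58.1 with voom weights, the exact test of edgeR, the replicate number as a block and each library left out.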

Additional observations from a re-analysis of the deposited data

How the results depend on the processing

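With 2 libraries a group, leaving one out leaves a lone library that is assumed to vary like the other group. These fits called 1 to 8 nuclear genes higher and 1 to 2 lower, and 0 to 1 mt- genes higher, with 1087 to 1394 genes called in the whole table in place of 1868. The nuclear median lay between 0.014 and 0.115 and the mt- median between -0.047 and 0.024, positive without the first DI or the second DMSO library. Scaling by library size only called 2 nuclear genes higher and 13 lower and 4 mt- genes lower, and put the nuclear median at -0.029 and the mt- median at -0.123, with the median of all genes at -0.102. With no filter on low counts 2 mt- genes were called higher. With the replicate number as a block, 2 nuclear genes were called higher, Ndufa2 (adjusted p = 0.0552) and Atp5e (0.0619) no longer being called, and 1389 genes in the whole table. The libraries share only a number, since same-numbered libraries did not deviate together (r = -0.0302 over 12590 genes), and the block changed no other call of the 6. The other alternatives (DESeq2 size factors and Wald test, upper quartile factors, mt- genes left out of the library sizes, a minimum of 10 counts, edgeR's exact test, limma-voom, copies summed) kept the 6 calls. Depth limits genes such as Ndufb4, with 19 to 44 counts.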
